A study of Caenorhabditis elegans with 2 samples.

Results

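Small nucleolar RNA (snoRNA) genes were examined for binding of HSF-1, the transcription factor of the heat shock response, in whole Caenorhabditis elegans. The loci were all 346 genes that Ensembl release 115 gives the biotype snoRNA on the nuclear chromosomes of ce11, of 46890 genes in all, and each was taken as the gene body with 200 bp on each side. A locus was called occupied when the summit of a deposited peak lay in that window. Their bodies were 54 to 344 bp long, with a median of 130 bp. Of these genes, 169 lay inside a protein-coding gene without touching an exon (called intronic, 142 with the host on the same strand and 27 on the opposite strand), 53 touched a protein-coding exon and 124 were intergenic.

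The worms were of 1 strain, RW12254, in which TY1, EGFP and 3xFLAG tags had been inserted into hsf-1 at its own locus by CRISPR, and the fusion was precipitated with an anti-GFP antibody. All worms were young adults, 63 h on from L1 larvae that had been starved after bleaching, and they make up a single group with 2 biological replicates. The labels name no heat treatment, and the sheared chromatin had a size range of 200 to 800 bp. Control data are listed as a source of the deposited peak lists, but they were not among the data used here. No untagged or input sample was analysed here, so the counts and signals below were not set against a control. Signal in whole animals averages over tissues: fewer cells with binding and less binding per cell cannot be told apart.

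Small nucleolar RNAs guide the chemical modification of ribosomal and spliceosomal RNA. Those of the C/D class direct ribose methylation and those of the H/ACA class direct the conversion of uridine to pseudouridine, each within a particle of core proteins. In animals many are cut out of the introns of host genes, while others are transcribed from promoters of their own. RNA polymerase III reads tRNA genes through an A box and a B box inside the gene, and small nuclear RNA (snRNA) genes carry a promoter element just upstream of the start that is bound by the complex SNAPc. HSF-1 itself is known for binding heat shock elements, repeats of an inverted GAA unit.

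Upstream sequences of 10 occupied loci are shown first, to display 2 patterns that recurred at such loci. They are among the strongest loci of each pattern and location, not the strongest of all. Y74C9A.6 and Y75B12B.12 are not shown, and 5 of the 15 strongest loci (F39B2.14, C51F7.4, T26A8.6, Y53F4B.47 and C10C6.8) held neither the first pattern nor any box of the second. Y75B12B.12 and C51F7.3, also among these 15, held a B box without an A box, which is only part of the second pattern. Some loci with the second pattern are also left out although they were stronger than a locus shown. Intergenic T19B4.8 was stronger than F32E10.10, and intronic F55A11.10 and T08B2.13 were stronger than C04G6.12. The windows run from 120 bases upstream of the annotated snoRNA start to 10 bases after it, on the strand of the snoRNA and as read from the RefSeq assembly of the same build. In the first 5, capitals mark AACNCG and TGTCGG with a gap of 5 bases between them, called the paired element below; WBGene00220222 is a gene of clone Y105C5A. The first 3 are intronic and the next 2 intergenic, and they lie at chrV:8500459-8500589 (plus strand), chrV:8228959-8229089 (minus), chrV:8348988-8349118 (plus), chrV:8247951-8248081 (minus) and chrIV:15649350-15649480 (minus).
ZK994.7: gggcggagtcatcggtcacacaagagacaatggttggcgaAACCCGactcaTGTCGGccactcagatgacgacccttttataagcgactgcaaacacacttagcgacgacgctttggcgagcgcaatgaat
C16D9.11: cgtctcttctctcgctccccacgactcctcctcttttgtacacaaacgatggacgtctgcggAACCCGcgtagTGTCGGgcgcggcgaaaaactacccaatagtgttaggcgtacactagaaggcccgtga
C08D8.3: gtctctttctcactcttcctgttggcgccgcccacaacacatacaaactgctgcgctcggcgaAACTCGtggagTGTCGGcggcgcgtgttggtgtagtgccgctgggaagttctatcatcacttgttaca
C16D9.10: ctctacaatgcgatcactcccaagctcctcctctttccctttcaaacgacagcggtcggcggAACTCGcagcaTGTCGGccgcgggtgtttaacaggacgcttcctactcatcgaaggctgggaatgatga
WBGene00220222: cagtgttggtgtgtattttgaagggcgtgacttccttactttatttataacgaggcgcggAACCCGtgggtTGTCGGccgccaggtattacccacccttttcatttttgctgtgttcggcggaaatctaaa

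The next 5 windows show the other pattern, a tRNA-like A box (TNGCNNAGNGG, also with 1 more base before the last GG) and B box (GTTCNANNC), both in capitals. The first 3 are intronic and the last 2 intergenic, at chrV:11314138-11314268 (plus), chrV:19643177-19643307 (minus), chrII:5105221-5105351 (minus), chrII:11960778-11960908 (plus) and chrIV:7574002-7574132 (plus).
T03F7.8: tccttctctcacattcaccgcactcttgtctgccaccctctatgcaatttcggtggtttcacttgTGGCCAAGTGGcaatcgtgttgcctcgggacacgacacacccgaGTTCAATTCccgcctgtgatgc
Y43F8C.22: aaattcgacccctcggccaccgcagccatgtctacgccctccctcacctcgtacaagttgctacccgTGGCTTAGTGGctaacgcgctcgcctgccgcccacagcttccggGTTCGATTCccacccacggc
C04G6.12: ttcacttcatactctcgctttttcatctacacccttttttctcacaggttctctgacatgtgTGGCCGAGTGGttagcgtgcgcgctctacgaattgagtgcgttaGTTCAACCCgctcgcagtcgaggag
W03C9.9: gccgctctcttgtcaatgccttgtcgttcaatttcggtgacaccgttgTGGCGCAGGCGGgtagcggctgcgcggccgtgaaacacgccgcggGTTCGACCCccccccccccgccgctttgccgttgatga
F32E10.10: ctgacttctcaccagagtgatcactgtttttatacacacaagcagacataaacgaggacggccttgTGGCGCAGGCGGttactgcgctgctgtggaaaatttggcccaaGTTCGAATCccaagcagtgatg

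Of the snoRNA loci, 96 of 346 (27.7%, 95% Wilson interval 23.3 to 32.7%) held a summit of the pooled thresholded list, against 5.83% of all genes under the same window rule. The conservative list, also made from both replicates, gave 83 occupied loci against a background of 5.22% of all genes, and 78 of the 83 were among the 96. The list of replicate 1 alone gave 47 loci (13.6%) against 2.28% of all genes, and that of replicate 2 gave 72 loci (20.8%) against 3.83%. In each of these lists the share of snoRNA loci thus lay above the share of all genes. The 96 loci held 98 distinct summits: 4 loci had 2 summits each and 2 summits were shared by a pair of neighbouring loci. Of the 96 loci, 38 were also occupied in both replicate lists, 7 in that of replicate 1 only, 30 in that of replicate 2 only and 21 in neither.

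Because windows differ in length between gene classes, the same count was made within 300 bp of each gene start. There 94 of 346 snoRNA genes (27.2%) had a pooled summit, against 3.51% of all genes. The share was 34.1% for the 129 snRNA genes, 24.5% for the 612 tRNA genes, 6.90% for the 261 miRNA genes and 4.50% for the 19973 protein-coding genes. The snoRNA interval of 22.8 to 32.1% overlapped those of snRNA genes (26.5 to 42.6%) and tRNA genes (21.3 to 28.1%), and it did not overlap that of protein-coding genes (4.22 to 4.80%). A tRNA, snRNA, miRNA or rRNA gene lay in the window of only 3 of the 346 snoRNA loci. Intervals cover the counting of loci only, since no source used here gives the number of reads and the depth is unknown, and they take loci as separate although the 346 windows join into 326 stretches.

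Counted by sequence in place of genes, the merged snoRNA windows spanned 182214 bp and held 53.8 pooled summits per 100 kb, against 2.93 per 100 kb over the nuclear genome. Intron sequence inside the windows held 65.7 summits per 100 kb, against 1.72 in introns elsewhere. Intergenic sequence inside the windows held 59.7 per 100 kb, against 4.02 elsewhere. Exon sequence in the windows was lower, with 27.9 per 100 kb, against 2.59 in other exons. The density in snoRNA windows was 27.4 per 100 kb in the list of replicate 1, against 1.21 genome-wide, and 39.0 per 100 kb in that of replicate 2, against 1.87 genome-wide.

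Intronic and intergenic snoRNA loci were occupied at similar shares. Pooled summits lay at 48 of 169 intronic loci (28.4%, interval 22.1 to 35.6%) and at 37 of 124 intergenic loci (29.8%, interval 22.5 to 38.4%). The difference, intronic minus intergenic, was -1.44 percentage points with a 95% Newcombe interval of -12 to 8.87, so a difference of up to about that size in either direction was not detectable with this number of loci. In the list of replicate 1 the shares were 10.7% of intronic loci and 18.5% of intergenic loci, a difference of -7.90 points (interval -16.5 to 0.177). In that of replicate 2 they were 22.5% of intronic loci and 22.6% of intergenic loci, a difference of -0.0950 points (interval -9.98 to 9.34). Loci touching an exon were occupied in 11 of 53 cases (20.8%, interval 12 to 33.5%).

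**Figure D1:**
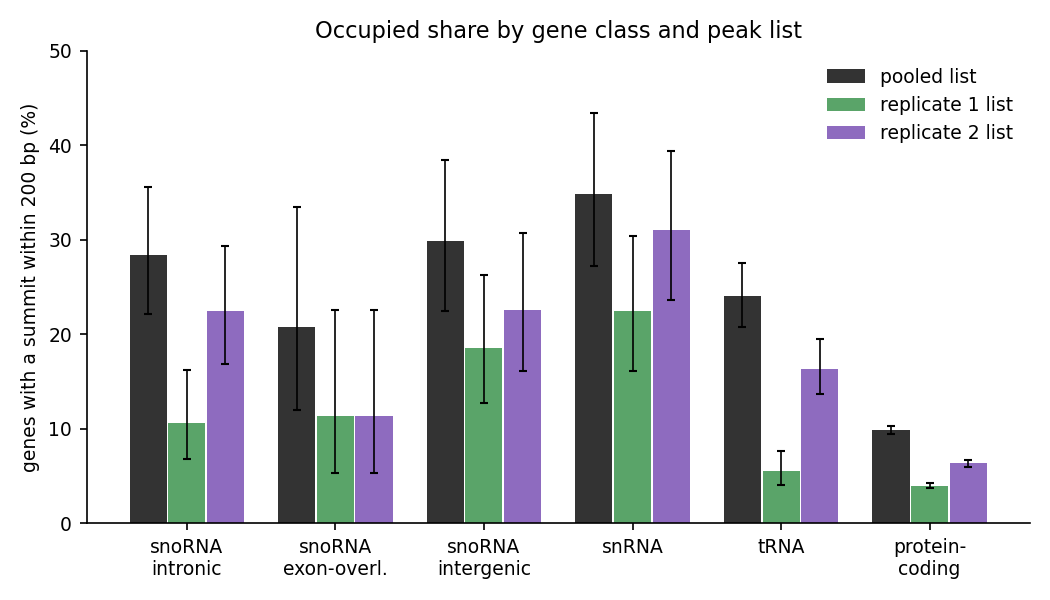
Share of genes (%, y axis) with a summit within 200 bp of the gene body in the pooled, replicate 1 and replicate 2 thresholded lists, for snoRNA loci by location and for snRNA, tRNA and protein-coding genes; error bars are 95% Wilson intervals. The pooled shares of intronic and intergenic snoRNA loci, 28.4% and 29.8%, lie close together, and all 3 snoRNA classes lie above protein-coding genes in the pooled list.

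Intronic loci were also counted by the strand of the host. Of the 27 loci whose host was on the opposite strand, 13 were occupied in the pooled list (48.1%, interval 30.7 to 66%), as were 35 of the 142 with a host on the same strand (24.6%, interval 18.3 to 32.3%). These intervals overlapped, which does not by itself show that the shares were alike, and no interval of this difference was computed. The direction was reversed in replicate 1, where only 1 opposite-strand locus was occupied. With replicate 1 alone, 1 of 27 opposite-strand loci (3.70%) and 17 of 142 same-strand loci (12%) were occupied, and with replicate 2 alone 10 (37.0%) and 28 (19.7%) were. Distance to the nearest protein-coding transcript start also varied. Among loci over 1000 bp from any such start, 25 of 84 intronic (29.8%) and 17 of 77 intergenic loci (22.1%) were occupied, and within 300 bp of one 9 of 30 intronic (30%) and 7 of 14 intergenic loci (50%) were occupied. The intervals of these small groups overlapped widely.

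Summits clustered just upstream of the snoRNA start, in introns as in intergenic sequence. Over the 100 pairs of a locus and a summit, the median position was -29.5 bp from the start, upstream of it, with quartiles of -52.0 and 22.8 bp on the strand of the snoRNA. Upstream flanks held 64.0% of the summits and 37.2% of the window bases, the snoRNA bodies 21.0% of the summits and 25.5% of the bases, and the downstream flanks 15% of the summits and 37.2% of the bases. The median was -27.0 bp for the 49 summits of intronic loci and -37.0 bp for the 39 of intergenic loci, whose quartiles (-47.0 to 21.0 bp and -57.5 to 8 bp) overlapped. A zone of -110 to 25 bp, chosen after the positions were seen, held 70 of the 100 summits in 25.3% of the window bases, and 70 loci had a summit in it: 34 intronic, 29 intergenic and 7 touching an exon. At tRNA genes the median summit lay at 15 bp (153 summits, 89 of them inside the gene), and at snRNA genes it lay at 17.5 bp (48 summits).

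**Figure D2:**
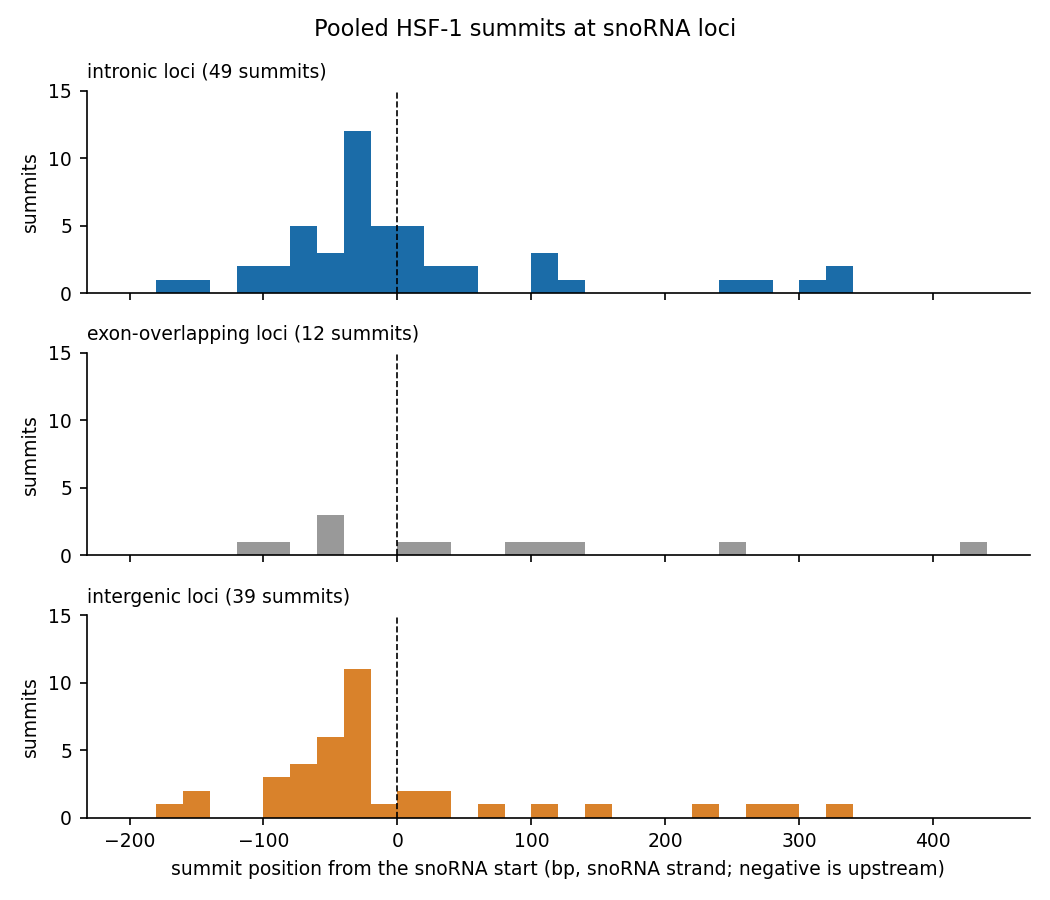
Number of pooled summits (y axis) by distance from the annotated snoRNA start in bp (x axis, on the strand of the snoRNA, bins of 20 bp) for intronic, exon-overlapping and intergenic loci; the dashed line marks the start. Intronic and intergenic summits both pile up just upstream of the start, with medians of -27.0 and -37.0 bp, while the 12 summits of exon-overlapping loci spread over -107 to 424 bp.

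The position relative to the host start was also measured. The 49 summits at intronic loci lay a median of 44.0 bp from the snoRNA start, against 1253 bp from the nearest transcript start of the host, and 29 of them lay over 1000 bp from any such host start. In all, 8 of the 49 fell in the promoter window of the host, which spans 1000 bp before and 200 bp after each transcript start. Both distances follow from where the windows lie, since a summit must fall within 200 bp of the snoRNA body to be counted. The median distance from the snoRNA start to the nearest protein-coding transcript start was 1097.5 bp for the 48 occupied intronic loci and 975 bp for the 121 unoccupied ones. For intergenic loci it was 831 bp for the 37 occupied and 1793 bp for the 87 unoccupied ones.

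The strongest loci came from all location classes, and 14 of the 15 strongest had their summit in the zone next to the start. Signal below means the value that the peak caller gave a peak, which ranks peaks inside 1 list and has no common scale across lists. Y74C9A.6, intergenic near the left end of chromosome I (3747 to 3909, minus strand), was the strongest, at a pooled signal of 556 (rank 133 of 2935). The overlapping peaks had signals of 218 in replicate 1 and 325 in replicate 2, and the summit lay inside the gene, 75 bp after its start. Among the 15 strongest, this was the 1 locus whose summit lay outside that zone. Y75B12B.12 (chromosome V, 15190976 to 15191093) followed with 538, with 252 in replicate 1 and 278 in replicate 2, and its start lay 203 bp from a protein-coding transcript start.

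Of the intronic loci, ZK994.7 in pxn-1, a peroxidasin gene, had the highest signal. It reached 462 in the pooled list, with 203 in replicate 1 and 264 in replicate 2. The summit was 29 bp before the snoRNA start, and 5690 bp separated that start from the nearest start of pxn-1. C16D9.11 in rol-3, a receptor tyrosine kinase gene, had 409 in the pooled list, with 198 in replicate 1 and 220 in replicate 2. These snoRNAs thus carried peaks far inside long hosts. C08D8.3 in C08D8.1 had a signal of 287, with 143 in replicate 1 and 136 in replicate 2. C51F7.3 in frm-7 had 269, with 105 in replicate 1 and 173 in replicate 2, and shared this summit with the neighbouring C51F7.4, which touches an exon of frm-7, so the gene to which the summit belongs is uncertain. Y37E3.20 in pcyt-2.1 had 223, with 98.8 in replicate 1 and 116 in replicate 2.

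Among intergenic loci, C16D9.10 stood next, with a signal of 340 and replicate values of 191 and 145. T26A8.6 had 249, with 130 in replicate 1 and 118 in replicate 2, and Y53F4B.47 had 248, with 94.5 in replicate 1 and 156 in replicate 2. WBGene00220222 and W03C9.9 completed the intergenic loci of the 15 strongest, with pooled signals of 199.5 and 190.6. The remaining intronic one was C10C6.8 in catp-8, a cation-transporting ATPase gene, whose pooled signal was 191 (87.2 in replicate 1, 104 in replicate 2). All 15 were occupied in both replicate lists.

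Of the loci that touch an exon, F39B2.14 was the strongest. Its signal was 460, with 180 in replicate 1 and 289 in replicate 2, and its start lay 61 bp from that of tmem-107, so that a peak at the host promoter and one at the snoRNA cannot be told apart there. T02E1.9 had 168, W01C9.6 had 119 and T27A3.9 had 106. For T27A3.9 the replicates stood apart, with 24.0 in replicate 1 and 81.2 in replicate 2. The median signal of the 98 summits in snoRNA windows was 105, against 92.6 over all 2935 pooled peaks, so the snoRNA peaks stood near the middle of the list, and the highest of them lay below the list's maximum of 8245.

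**Figure D3:**
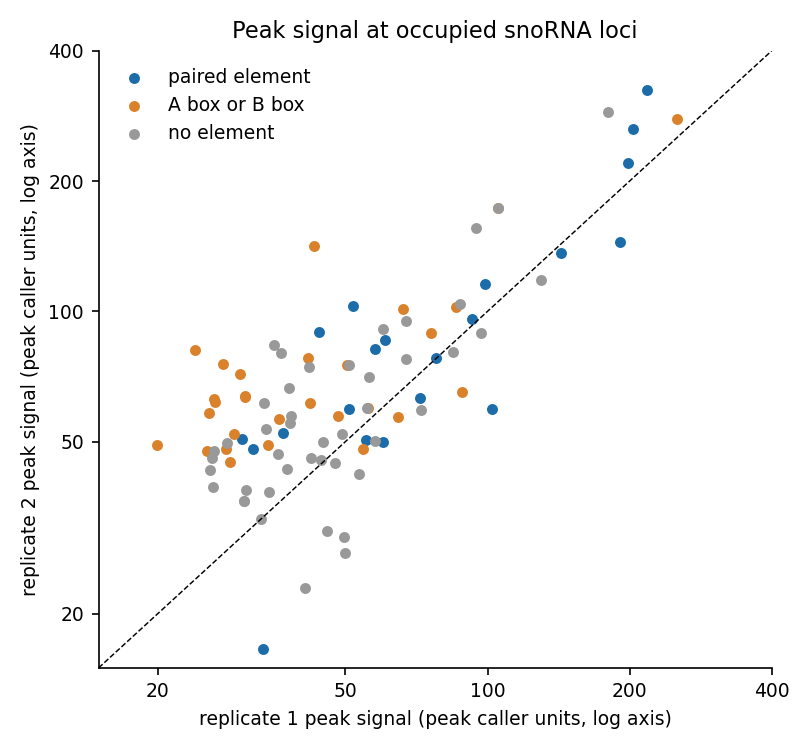
Peak signal in replicate 2 (y axis) against replicate 1 (x axis), both in peak caller units on log axes, for occupied snoRNA loci with a matching peak in both ranked lists (95 of 96), coloured by the upstream pattern found; the dashed line marks equal values. The strongest loci are high in both replicates, with Y74C9A.6 at 218 and 325, and many loci with an A box or B box lie above the line.

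Across the 95 occupied loci with a matching ranked peak in both replicates, the signals had a Spearman correlation of 0.629 and a Pearson correlation of log2 signal of 0.747, given as a description over loci that share the 2 libraries. Of the 54 occupied loci with a pooled signal of 100 or more, 35 were in both replicate lists. Summits of that strength had their median at -33.0 bp, and 46 of 55 lay in the zone next to the start. Of the 45 weaker summits, 24 did. Strong summits thus lay in the zone more often than weak ones.

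The upstream patterns were found by reading the sequences of occupied loci. How often loci that hold them are occupied is therefore fixed in part by that choice, and the shares that follow describe these loci and support nothing beyond them. The paired element stood in the 131-base upstream window of 27 of 346 snoRNA genes (7.80%), against 10.9% of snRNA genes, 0.163% of tRNA genes and 0.0401% of protein-coding genes. The A box stood in 28 windows (8.09%), against 0.775% of snRNA genes, 1.53% of miRNA genes and 0.315% of protein-coding genes. The B box stood in 38 windows (11.0%), a share like the 10.9% of snRNA genes, against 4.60% of miRNA genes and 1.89% of protein-coding genes. Within tRNA gene bodies the same patterns matched 42.2% (A box) and 95.9% (B box). The A box was followed by the B box, 20 to 75 bases on, in 15 snoRNA windows (4.34%), against 0.0150% of protein-coding windows. Only the strand of the gene was searched, and no window held both the paired element and a box.

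Loci with the paired element were occupied in 21 of 27 cases (77.8%). Those with an A box were occupied in 20 of 28 cases (71.4%), those with a B box in 22 of 38 (57.9%) and those with the A box and then the B box in 12 of 15 (80%). With any of these, 51 of 78 loci (65.4%) were occupied, and with none 45 of 268 (16.8%). With replicate 1 alone the shares were 33.3% with an element and 7.84% without, and with replicate 2 alone 53.8% with an element and 11.2% without. The share without an element still lay above the 5.83% of all genes.

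By location the counts were as follows. Among intronic loci 28 of 44 with an element (63.6%) and 20 of 125 without one (16.0%) were occupied. Among intergenic loci the counts were 19 of 28 with an element (67.9%) and 18 of 96 without one (18.8%). Of intronic loci with the paired element, 12 of 13 were occupied, and of intergenic ones 9 of 14. With an A box or B box the order was the other way, 16 of 31 intronic loci (51.6%) and 10 of 14 intergenic loci (71.4%), and no difference between locations was tested. The loci with a host on the opposite strand held an element in 13 of 27 cases, and 8 of those 13 were occupied. Over all 169 intronic loci, these 27 included, 44 held an element, so loci with an opposite-strand host held one more often.

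**Figure D4:**
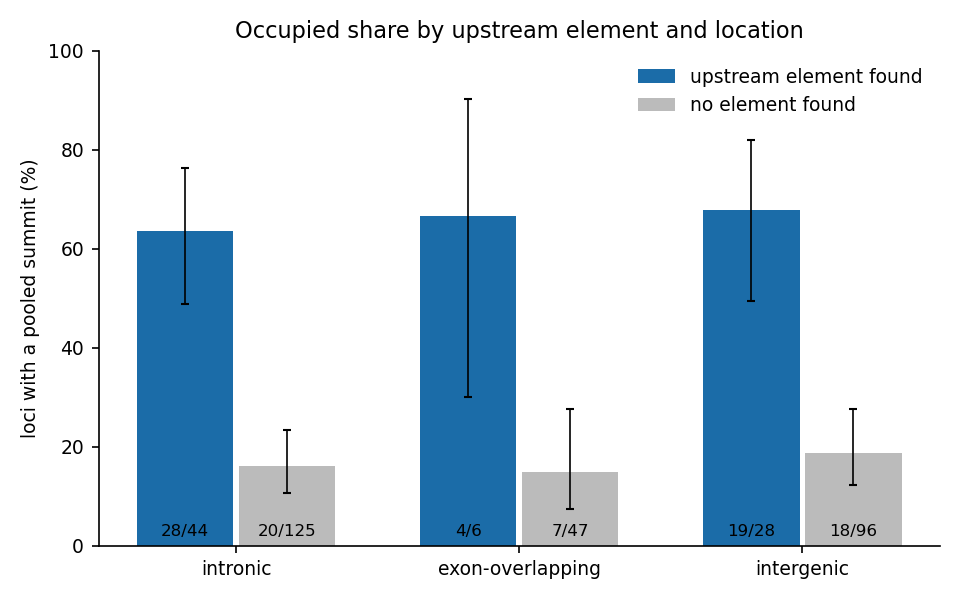
Share of loci with a pooled summit (%, y axis) for loci with and without an upstream element, by location; error bars are 95% Wilson intervals and the numbers in the bars are occupied loci over loci. Loci with an element stand between 63.6% and 67.9% in all 3 classes, and loci without one between 14.9% and 18.8%.

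The distance of the summit from the element was measured at loci whose summit lay in the zone next to the start. As both the zone and the search window lie around the start, these distances are bounded by that choice. In 17 loci with the paired element and a summit near the start, the centre of the element lay a median of 51.0 bp upstream of the start (range -72.0 to -46.0), and the summit lay a median of 31.0 bp downstream of it (range -16.0 to 70.0). In 20 loci with an A box it was centred at a median of -53.2 bp, and the summit lay a median of 10 bp downstream of it. In 20 loci with a B box it was centred at a median of -10 bp, and the summit lay a median of 26.0 bp upstream of it. Among the 12 of these loci with both boxes, the summit lay between them in 6, upstream of the A box in 4 and downstream of the B box in 2. A further 4 occupied loci with the paired element (Y74C9A.6, W03B1.17, WBGene00220176 and smy-2) had their summit outside the zone. Of the 70 loci with a summit near the start, 45 held an element and 25 held none, against 27 of 250 loci (10.8%) with no pooled summit that held one.

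Copies of the elements were also counted over the whole genome. The genome held 1090 copies of the paired element, of which 42 (3.85%) had a pooled summit within 100 bp. Those next to an snRNA start had one in 9 of 14 cases, those next to other ncRNA genes in 4 of 13 and those next to no small RNA gene in 12 of 1025 (1.17%). Of the copies of the A box followed by the B box, 61 of 240 inside tRNA genes (25.4%) and 20 of 1166 (1.72%) next to no small RNA gene had a summit. The patterns were read from occupied snoRNA windows, so the shares at snoRNA copies are not set against the others.

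The heat shock element was rare at these loci. The pattern searched was a run of alternating GAA and TTC units spaced by 2 bases, as in GAANNTTC, with another unit added and no mismatch, in either order, which covers both strands. It lay within 100 bp of 1 of the 98 distinct summits in snoRNA windows (1.02%), at the intergenic W06H8.17, against 16.6% of all pooled summits. The pair of units alone lay near 9.18% of the snoRNA summits, against 36.1% of all pooled summits. None of the 70 upstream windows of loci with a summit near the start held the longer pattern, and 1 of 250 windows of loci without a pooled summit did. A site with a mismatch would not be found by this search.

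Short snoRNA genes were occupied more often than long ones. Of the 56 genes of 80 bp or less, 37 had a pooled summit (66.1%, interval 53.0 to 77.1%), while the other length classes ran from 13.9% to 26.4%. In the replicate lists 28.6% (replicate 1) and 53.6% (replicate 2) of the genes of 80 bp or less were occupied. The pattern held in both locations: 22 of 34 short intronic loci and 13 of 20 short intergenic loci were occupied, against 26 of 135 and 24 of 104 longer ones. It was seen with and without an upstream element. Of loci with an element, 26 of 30 short ones (86.7%) and 25 of 48 longer ones (52.1%) were occupied, and of those without, 11 of 26 short ones (42.3%) and 34 of 242 longer ones (14.0%).

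**Figure D5:**
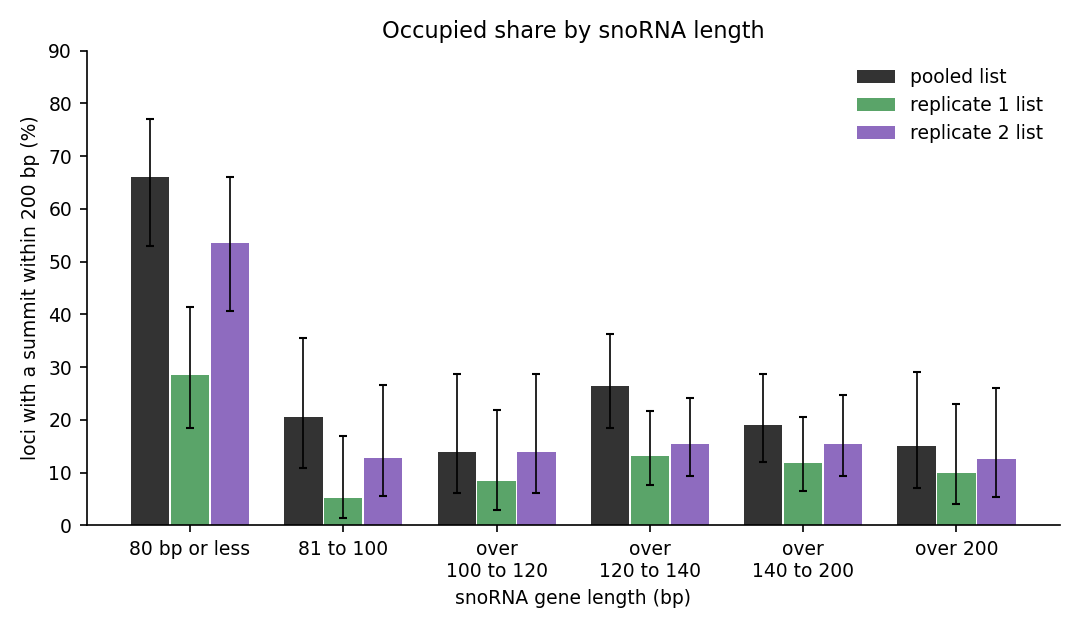
Share of snoRNA loci with a summit within 200 bp (%, y axis) by length of the gene in bp (x axis) in the pooled, replicate 1 and replicate 2 thresholded lists; error bars are 95% Wilson intervals. Genes of 80 bp or less stand at 66.1% in the pooled list, above every longer class.

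The C box, TGATGA, and the D box, CTGA, are the short signatures of the C/D class, bound by its core proteins. Both were found as written, in the first 25 and the last 20 bases, in 15 genes, and 10 of these were occupied (66.7%, interval 41.7 to 84.8%). An ACA within the last 8 bases, a mark of the H/ACA class, was found in 91 other genes, of which 24 were occupied (26.4%). The other 240 genes, many of which may carry variants of these letters, were occupied in 62 cases (25.8%). As examples, 3 of the 10 are shown with both boxes in capitals, chosen because their upstream windows are shown above. Y74C9A.6 and C51F7.3, which were stronger than W03C9.9, are not shown. The 3 lie at chrV:8247888-8247961 (minus), chrV:8349108-8349187 (plus) and chrII:11960898-11960959 (plus).
C16D9.10: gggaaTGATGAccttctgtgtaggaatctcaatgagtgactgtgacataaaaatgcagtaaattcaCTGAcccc
C08D8.3: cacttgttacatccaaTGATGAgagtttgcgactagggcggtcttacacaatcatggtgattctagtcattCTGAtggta
W03C9.9: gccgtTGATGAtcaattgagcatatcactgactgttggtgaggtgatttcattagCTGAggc
The 10 occupied genes with both boxes were 62 to 163 bp long.

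A run of 4 T residues, the letters at which RNA polymerase III is known to stop, lay in the 30 bases after the annotated end of 183 genes. Of these, 72 were occupied (39.3%, interval 32.6 to 46.6%), against 24 of 163 genes without such a run (14.7%, interval 10.1 to 21.0%). The run was found after 63 of the 78 genes with an upstream element (80.8%) and after 120 of 268 genes without one (44.8%). With an element, 44 of 63 genes with a run and 7 of 15 genes without one were occupied. This search, too, was added after the loci had been seen.

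Ribosomal protein genes are classic hosts of snoRNAs. Of 19 intronic loci in 13 such genes, 3 were occupied and 0 held an upstream element, against 45 occupied and 44 with an element among 150 intronic loci in 136 other hosts. The 3 were B0041.9 in rpl-4, F53G12.12 in rpl-7 and C16A3.11 in rps-13, named after their values were seen, with pooled signals of 82.8, 82.4 and 84.0. B0041.9 and F53G12.12 were in neither replicate list. C16A3.11 was in that of replicate 1 only, with its summit 328 bp after the snoRNA start. B0412.6 and B0412.7, both in rps-29, were occupied in the conservative list but not in the pooled one. There were 16 hosts with 2 or more intronic snoRNAs, 36 loci in all, and 5 of those loci were occupied. nol-56, a core protein gene of the C/D particle, itself holds 4 intronic snoRNAs and none was occupied. At F26D10.24 in an intron of hsp-1, a constitutive Hsp70 gene and known HSF-1 target, the signal was 159.9, with 84.6 in replicate 1 and 80.5 in replicate 2, and the summit lay 241 bp after the snoRNA start, outside the usual zone. This locus was singled out after its values were seen.

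The X chromosome held few occupied snoRNA loci. There 1 of 33 was occupied (3.03%, interval 0.537 to 15.3%), the intergenic C53B7.8, whose pooled signal of 100.2 came with 54.5 in replicate 1 and 48.1 in replicate 2. On the autosomes the shares ran from 20.4% on chromosome III to 38.2% on chromosome V. The X had 13.5 pooled summits per Mb, against 26.0 to 41.1 on the autosomes, and 3.75% of its genes of all kinds were occupied, against 2.57% on chromosome IV and 6.48 to 13.6% on the other autosomes. Chromosome IV has 19704 annotated genes, against 3859 to 7870 on each other chromosome, and it had 32.5 pooled summits per Mb. Its low share of genes thus does not mean few summits. An upstream element was found at 5 of the 33 X loci, and 57 of the 276 tRNA genes on the X were occupied.

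Below the threshold, the full ranked list of the pooled analysis placed a summit in 257 of 346 snoRNA windows (74.3%), against 53.5% of all genes, so that most windows hold some ranked peak. By class the share was 77.0% for tRNA genes, 68.2% for snRNA genes, 79.3% for protein-coding genes and 14.5% for the 15363 piRNA genes. In this list snoRNA loci thus did not stand above tRNA or protein-coding genes. Of the 161 loci with a ranked summit but none in the pooled thresholded list, 53 (32.9%) had their strongest ranked summit in the zone next to the start. Of the 96 loci occupied in the pooled thresholded list, 69 (71.9%) did, but the zone was chosen from their summits, so this share is fixed in part. The zone covers 25.3% of the window bases. Among the 161 loci, the share in the zone was 52.4% for the 21 with an upstream element and 30% for the 140 without, the latter near the share of bases. The strongest was the intergenic WBGene00220185, of clone Y57G11C, with a ranked signal of 81.8 and a summit 9 bp upstream of the start. Its irreproducible discovery rate (IDR, the measure used to threshold the lists) was 0.004, under the 0.01 that the thresholded peaks meet. Yet the pooled thresholded list does not hold it. Its upstream window (chrIV:14780719-14780849, plus) also has the paired element.
WBGene00220185: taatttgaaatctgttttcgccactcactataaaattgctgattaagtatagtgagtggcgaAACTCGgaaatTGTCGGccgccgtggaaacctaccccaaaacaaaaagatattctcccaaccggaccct
The next 4 were K02F6.11 with a ranked signal of 77.1, smy-3 with 76.7, Y46G5A.40 in pisy-1 with 74.3 and T24H7.6 in T24H7.2 with 70.4, at IDR values of 0.0107 to 0.0179. K02F6.11 was occupied in the conservative list and Y46G5A.40 in the list of replicate 1.

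There were 6 loci with a summit in 1 replicate list and none in the pooled list. C26C6.13 and Y46G5A.40 were in that of replicate 1, and the ranked pooled list has no summit at C26C6.13. C07H6.10 in cgh-1, Y49E10.36 in his-72, Y24D9A.10 in rpl-7A and K07C11.11 in air-1 were in that of replicate 2, with ranked pooled signals of 48.3 to 63.9. No locus was in both replicate lists and missing from the pooled one.

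Genes for the proteins of snoRNA particles, their assembly, snoRNA processing and the promoter complex SNAPc were examined through their promoters. Of 33 listed genes 32 were matched, and 11 (34.4%, interval 20.4 to 51.7%) had a pooled summit in that promoter window, against 7.63% of all protein-coding genes. In the C/D core, 2 of 4 had one: fib-1, the fibrillarin methyltransferase, with a signal of 132 and a summit 70 bp upstream of the start, and nol-58 with 100.7. In the H/ACA core, 2 of 4 had one: dkc-1, the pseudouridine synthase, with 213, and Y48A6B.3 with 115. nol-56, snu-13, garr-1 and nola-3 had none. For 8 of the 11 the summit also fell in the promoter window of another gene, such as mut-15 for fib-1 and ran-1 for dkc-1.

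Of the assembly ATPases, ruvb-1 had a summit with a signal of 82.0 and ruvb-2 had none. Of 15 processing genes, 4 had one. They were xrn-2, a nuclear exonuclease, with 254, mtr-4, the helicase of the nuclear exosome, with 135, crn-3, an exonuclease of the exosome, with 93.9, and the exosome subunit exos-9 with 88.2. The summit counted for exos-9 lay 939 bp upstream of its start, and also in the promoter window of pfd-5. Of the 7 matched SNAPc genes 2 had one, snpc-3.1 with 78.8 and snpc-3.4 with 958. The peak at snpc-3.4, rank 61 of the pooled list, was the strongest of the 11, with 415 in replicate 1 and 536 in replicate 2 and a summit 36 bp upstream of the start. For fib-1, dkc-1, xrn-2, mtr-4 and snpc-3.4 a peak of each replicate list overlapped the pooled peak, and for ruvb-1 and exos-9 none did.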

How the data were processed

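Peak lists of HSF-1 binding in 2 biological replicates were used as the authors deposited them on ce11: pooled (2935 peaks), conservative (2572), replicate 1 (1217) and replicate 2 (1877), each with a longer ranked list. The signal of each peak, deposited by the authors, is the peak caller's value. The deposited score is the irreproducible discovery rate (IDR) on another scale, and the deposited −log10 of the IDR was used for the alternative threshold of 0.05. No source used here names the aligner, the peak caller or the depth, and control data were not analysed here. Left unused were 16 columns of single peak sets that name no sample.

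Genes came from Ensembl release 115 and sequence from the RefSeq genome of the same assembly. Replicate signals at a pooled peak came from the nearest overlapping peak of each ranked list. Shares carry 95% Wilson intervals and differences Newcombe intervals, and no test was run because there is 1 group. The snoRNA loci, the protein list and the comparisons were chosen with earlier results of these data known, and the sequence patterns and the zone next to the start after the loci were seen. Named loci are the 15 strongest, the 5 strongest of each location class, the 5 strongest without a pooled thresholded summit and all in a replicate list only. The counting was checked on simulated peaks, with Python 3.11.15, numpy 2.4.6, pandas 2.3.3 and scipy 1.17.1.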

Additional observations from a re-analysis of the deposited data

How the results depend on the processing

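No paired analysis was possible because there is 1 group. The count of 96 occupied loci stayed within 1.5 times under most other choices. It was 21 with no flank and 60 with the stronger part of the pooled list (1467 peaks), and 47 to 72 with 1 replicate list alone. The intronic minus intergenic difference of -1.44 points was -7.20 with the stronger part, -7.54 with hosts on the same strand only and 7.68 with loci over 1000 bp from a coding start, and -7.90 to -0.0950 with 1 replicate list alone, so its sign depended on the choice. The density of 53.8 summits per 100 kb was 44.3 with no flank, 70.8 with 100 bp, 31.4 with 500 bp, 32.9 with the stronger part and 27.4 to 39.0 with 1 replicate list alone. The median position of -29.5 bp moved only between -38.5 and -21.0 bp. Ranked summits lay at 116 loci at an IDR of 0.05 or less and at 207 to 245 with 1 replicate. The 11 protein genes became 7 to 8 with 1 replicate list alone. The difference of 48.6 points by upstream element, a description added after the data were seen, was 25.5 to 42.7 points with 1 replicate list alone and stayed within the spread of the replicates (SD 12.1) under the other 3 alternatives. Depth is unknown, and 2 replicates of 1 group with no control analysed here limit what a call shows.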

Other observations

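The replicates did not weigh the upstream patterns alike. At occupied loci with an A box or B box the log2 ratio of replicate 2 to replicate 1 signal had a median of 0.72 and was above 0 at 26 of 29 loci. At loci with the paired element the median was 0.23 (14 of 21 above 0) and at loci with no element 0.26 (33 of 45 above 0). Over all pooled summits with a value in both replicates the median was 0.38, and at summits in tRNA windows it was 0.50. In the thresholded lists, loci with an A box were occupied in 8 of 28 cases in replicate 1 and 18 of 28 in replicate 2, and loci with the paired element in 14 and 17 of 27. Signals are not scaled between the lists, so only the order of the groups can be read, and its cause was not tested.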
